A study of Mus musculus with 12 samples.

Results

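The miR-29 family was followed in small RNA-Seq libraries from the colon and the blood of the same 6 mice. Its 7 members were taken by name from the deposited miRNA count table, 7 of 1978 entries: the 3p arms miR-29a-3p, miR-29b-3p and miR-29c-3p, and the 5p arms miR-29a-5p, miR-29b-1-5p, miR-29b-2-5p and miR-29c-5p (mmu-mir-29a-3p, mmu-mir-29b-3p, mmu-mir-29c-3p, mmu-mir-29a-5p, mmu-mir-29b-1-5p, mmu-mir-29b-2-5p and mmu-mir-29c-5p in the table). All 7 had counts in both tissues. The animals were male C57BL/6 mice of 8 weeks with no transgene. The DSS-UC group (mice 1, 7 and 9) drank water with 1.5% (wt/vol) dextran sulfate sodium (DSS), a chemical that injures the colon epithelium, for 7 days, and was sacrificed on day 8 after a return to regular water, while the control group (mice 2, 4 and 8) drank the same water without DSS. The DSS-UC group is an acute chemical model of colitis, and the sequenced animals of both groups had been picked from a larger set by their disease activity index. Whole colon tissue and whole blood were sampled, so each library holds RNA of many cell types.

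The assignment of mice rests on the sample names and on the way the study's figures use them. The disease state field of the sample labels instead marks mice 1, 2 and 4 as colitis and mice 7, 8 and 9 as control, and the fields for source and tissue name opposite tissues. The tissue was checked on miRNAs typical of cell types. The 8 listed epithelial miRNAs summed to 53803 to 195401 CPM (counts relative to the library's total, scaled by TMM factors within a tissue) in the colon libraries and to 946 to 1322 CPM in the blood libraries, and the 4 listed red cell miRNAs summed to 1690 to 2571 CPM in colon against 287255 to 577392 CPM in blood. Total counts over all entries were 15060553 to 20106226 per colon library and 21127134 to 32944792 per blood library. With each mature sequence counted once, the smallest blood library held 12576492 counts (mouse 9) and the largest 19440594 (mouse 7). The smallest colon library then held 15006514 (mouse 1) and the largest 19987322 (mouse 9), so blood was not sequenced deeper than colon. In blood, miR-486a-5p, miR-486b-5p and miR-451a took 76.3% to 83.9% of the counts, against 0.283% to 0.501% in colon. These shares are of the totals over all entries and count some blood reads more than once. In the blood of mouse 1 the total fell from 29939206 to 18311011 with each sequence once. There miR-486a-5p had 11145907 counts.

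The miR-29 family is known as a regulator of the extracellular matrix: its 3p arms pair with the messenger RNAs of collagens, elastin, fibrillin and other matrix proteins and lower their output, and the family is best studied as a brake on fibrosis. A miRNA recognises its targets mainly through the seed, so members with the same seed are thought to share most targets. The 5p arms are the other strand of each hairpin and are usually degraded.

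The sequences are shown because the seed divides the family and because some members are nearly identical. Each is written 5′ to 3′ with the seed, bases 2 to 8, in capitals, as the deposited tables give it, and all 7 were the same in RefSeq (GRCm38.p6). The 3p arms shared the seed AGCACCA.
miR-29a-3p: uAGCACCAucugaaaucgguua
miR-29b-3p: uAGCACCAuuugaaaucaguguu
miR-29c-3p: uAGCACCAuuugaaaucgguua
The 5p arms had 4 different seeds, of which those of miR-29b-1-5p and miR-29b-2-5p are the same stretch shifted by a base.
miR-29a-5p: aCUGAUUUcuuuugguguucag
miR-29b-1-5p: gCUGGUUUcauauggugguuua
miR-29b-2-5p: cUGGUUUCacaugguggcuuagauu
miR-29c-5p: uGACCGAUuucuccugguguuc

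No miRNA outside the family carried the seed of the 3p arms: 3 of the 1405 mature sequences in the deposited tables held it, 0.214%. With positions counted from 1 at the 5′ end, miR-29a-3p and miR-29c-3p differed by the single substitution C10U over 22 bases. A read of miR-29a-3p with U in place of C there has the sequence of miR-29c-3p and could be counted for it, and the reverse. How reads were assigned was not tested, so the levels of these 2 arms are uncertain to that extent. miR-29c-3p counts were 0.187% to 0.384% of the miR-29a-3p counts in blood and 0.660% to 0.902% in colon. The uncertainty is therefore larger for miR-29c-3p. miR-29b-3p differed from miR-29a-3p by C10U, G18A, U21G and A22U and ended in AGUGUU, a motif known to direct miR-29b to the nucleus. This ending was held by 2 of the 1405 sequences (0.142%), the other being miR-92b-5p.

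The 4 hairpins lie in 2 gene pairs (GRCm38). Mir29a is at chr6:31062660-31062747 and Mir29b-1 at chr6:31063023-31063093, both on the minus strand with 275 bases between them. Mir29a overlapped no other annotated gene, and Mir29b-1 shared 2 bases with an exon of the lincRNA Gm27019. Mir29b-2 is at chr1:195037040-195037120 and Mir29c at chr1:195037547-195037634, both on the plus strand with 426 bases between them, and both lie whole within an exon of the non-coding transcript A330023F24Rik. On the opposite strand the same bases are annotated as 3′ UTR of Cd46. The mature miR-29b-3p is made from both Mir29b-1 and Mir29b-2, so its counts cannot be divided between the pairs, whereas each 5p arm belongs to a single hairpin.

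miR-29a-3p made up nearly the whole family. It held 95.8% to 96.6% of all miR-29 counts in the colon libraries and 98.0% to 98.9% in the blood libraries, and it ranked 57 to 64 among all miRNAs of a colon library and 48 to 56 among those of a blood library. miR-29b-3p held 1.87% to 2.59% of the family in colon and 0.769% to 1.25% in blood, and ranked 196 to 215 and 253 to 300. miR-29c-3p held 0.634% to 0.864% in colon and 0.185% to 0.378% in blood. All 4 5p arms together held 0.677% to 1.18% of the family in colon and 0.0904% to 0.361% in blood. The order of the 3p arms, from high to low, was 29a-3p, 29b-3p, 29c-3p in every library, with no overlap between neighbours within a tissue. Mature arms are 22 to 25 bases long, so levels were compared without correction for length, and differences in capture between sequences were not measured.

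**Figure D1:**
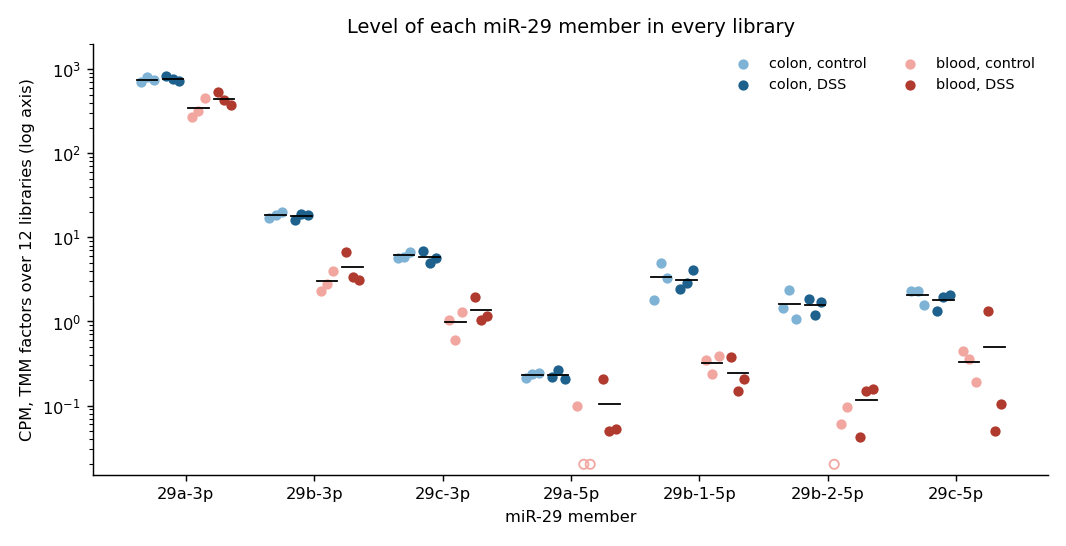
Level of each miR-29 member in every library as CPM with TMM factors over all 12 libraries (log axis); points are mice, short lines the group mean where every library had counts, and open circles at the bottom mark libraries with 0 counts. miR-29a-3p lies between 269 and 831 CPM, no other member exceeds 20.2 CPM, and blood lies below colon for each 3p arm.

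The first comparison asked whether the family changed in the inflamed colon. No change was detectable: none of the members tested was significantly differentially expressed (SDE, used here for a padj not above 0.05 together with a change of more than 1.5-fold, up or down). In the colon of the DSS-UC mice miR-29a-3p stood at 1104, 974 and 956 CPM (mice 1, 7 and 9, scaled within colon). The control mice 2, 4 and 8 had 889, 1021 and 966 CPM, so the groups overlapped. The fold change was 1.06, or 0.08 ± 0.12 on the log2 scale (SE, n = 3 per group), with an adjusted p of 0.672 in edgeR's quasi-likelihood test. Its 95% interval of 0.869 to 1.28 in fold lay inside the limits of the SDE call.

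miR-29b-3p, the arm with the nuclear motif, stood at 21.4, 24.6 and 24.2 CPM in the DSS-UC colon and at 21.5, 23.5 and 26.1 CPM in the control colon. Its log2FC was -0.02 ± 0.15 (SE), with an interval of 0.766 to 1.27 in fold. miR-29c-3p stood at 9.17, 6.43 and 7.47 CPM in the DSS-UC colon and at 7.13, 7.55 and 8.71 CPM in the control colon. Its log2FC was -0.02 ± 0.19 (SE), with an interval of 0.721 to 1.34 in fold. For both arms each group's range covered most of the other's, and the adjusted p-values were 0.932 and 0.940 in edgeR.

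The 5p arms were low and more variable. miR-29b-1-5p had 45, 66 and 139 counts in the DSS-UC colon and 34, 105 and 68 in the control colon (log2FC -0.06 ± 0.39, SE). miR-29b-2-5p had 34, 27 and 58 counts against 27, 50 and 22 (log2FC -0.00 ± 0.35, SE). miR-29c-5p had 25, 44 and 71 counts against 44, 48 and 32 (log2FC -0.15 ± 0.27, SE). The intervals of these arms in fold reached from 0.509, 0.560 and 0.583 up to 1.82, 1.78 and 1.40, so changes past the SDE limit were not excluded for them at this depth. miR-29a-5p, with 4 to 7 counts in every colon library, did not pass the filter on low counts and was not tested.

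In all, 0 of the 6 members tested in colon were SDE, where 10.1% of the 542 miRNAs tested were (5.9% higher and 4.24% lower in the DSS-UC mice). That split depended on the scaling: 32 were higher and 23 lower with TMM factors, 6 and 10 with RLE factors, and 38 and 9 with total counts alone. No member had groups without overlap, against 38.6% of the miRNAs tested. The median log2FC of the 6 members was -0.02, beside 0.04 over all miRNAs tested. The count over all miRNAs, 55, fell to 0 when mouse 2, 4, 7 or 8 was left out, while the count of members stayed at 0. Scaling by total counts alone moved the median of all miRNAs to 0.26 on the log2 scale and all members with it. Relative to that median the members lay between -0.19 and 0.03 with TMM factors and between -0.19 and 0.04 over the other scalings.

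Markers of other cell types differed in the same colon libraries. Of 8 epithelial miRNAs 4 were SDE and lower and none was higher, and their summed level was 53803 to 130871 CPM in the DSS-UC mice and 155607 to 195401 CPM in the control mice. Of 4 myeloid miRNAs 2 were SDE and higher, miR-223-3p and miR-223-5p. The summed level of all 4 was 369 to 1123 CPM against 254 to 379 CPM, so the groups overlapped. Most of that sum was miR-142a-5p, which was not SDE. Of 3 stromal miRNAs 1 was SDE and higher, miR-199a-5p, and their summed level was 5006 to 5705 CPM in the DSS-UC mice against 3492 to 3694 CPM in the control mice, without overlap. The summed level of the 2 endothelial and platelet miRNAs, neither of them SDE, was 6861 to 7340 CPM against 5144 to 5558 CPM. None of the listed markers of these 4 kinds was at 0 in a colon library, and the smooth muscle and lymphocyte lists had no SDE member. In such bulk samples fewer cells of a type and less RNA per cell cannot be told apart, and the part of cell composition in the levels of the family was not tested.

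**Figure D2:**
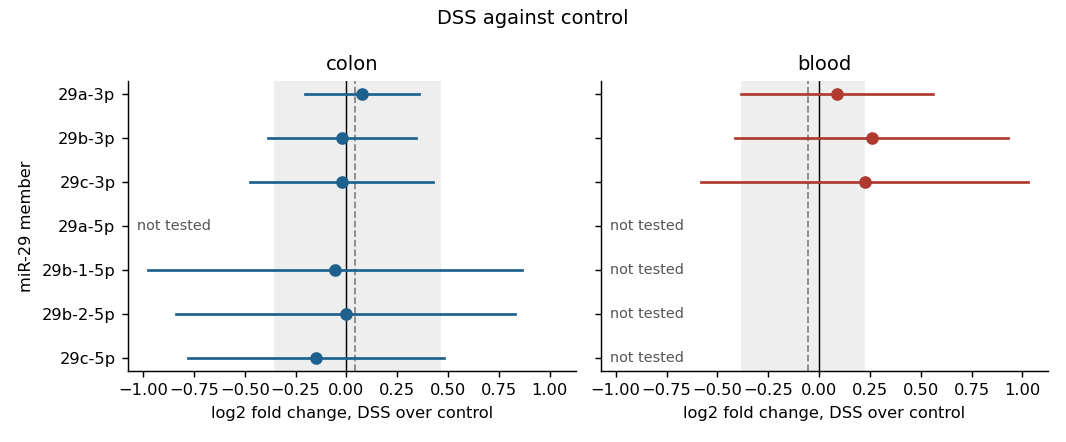
log2 fold change of DSS over control in colon (left) and blood (right) for each miR-29 member with its 95% interval from edgeR; the dashed line is the median and the grey band the middle 50% of all miRNAs tested. Every interval crosses 0, and members that did not pass the filter on low counts are marked as not tested.

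The same comparison in blood tested the 3p arms only, since the 5p arms had 0 to 32 counts per blood library and did not pass the filter. miR-29a-3p stood at 321, 282 and 330 CPM in the DSS-UC blood (mice 1, 7 and 9, scaled within blood) and at 245, 308 and 324 CPM in the control blood (mice 2, 4 and 8). The fold change was 1.06 (log2FC 0.09 ± 0.21, SE, n = 3 per group), with an interval of 0.767 to 1.47 in fold and an adjusted p of 0.924 in edgeR. miR-29b-3p stood at 4.08, 2.19 and 2.72 CPM against 2.11, 2.65 and 2.78 CPM, where mouse 1 was high and the other DSS-UC mice lay within the control range. Its log2FC was 0.26 ± 0.29 (SE), with an interval of 0.752 to 1.90 in fold, and it was 0.01 when mouse 1 was left out. miR-29c-3p stood at 1.18, 0.677 and 1.02 CPM against 0.944, 0.576 and 0.916 CPM (log2FC 0.22 ± 0.35, SE).

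No member was SDE in blood, where 0% of the 484 miRNAs tested were. Among all miRNAs, 56 had an unadjusted p under 0.05 in edgeR, and none of them was a member. DESeq2 called 10 miRNAs in blood, again with no member. The groups overlapped for all 3 arms, against 17.4% of the miRNAs tested without overlap. The intervals of miR-29b-3p and miR-29c-3p reached above a 1.5-fold increase, so such a change was not excluded for them.

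Among the 5p arms in blood, miR-29c-5p was the most uneven. It had 32 counts in mouse 1, 1 in mouse 7 and 2 in mouse 9, against 9, 6 and 4 in the control mice 2, 4 and 8. In mouse 1 its count was near that of its own 3p arm, 47. miR-29b-1-5p had 9, 3 and 4 counts in the DSS-UC blood and 7, 4 and 8 in the control blood. miR-29b-2-5p had 1, 3 and 3 counts against 0, 1 and 2, and miR-29a-5p had 5, 1 and 1 against 2, 0 and 0. Both were at or near the limit of 3 counts that a library with a count of 0 allows, and no fold change between the groups is given for them.

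Whether DSS acted differently on the family in blood and in colon was tested by an interaction term over all 12 libraries. None of the 3p arms passed, where 0% of the 680 miRNAs tested were called. The 5p arms other than miR-29a-5p entered this fit only through their colon counts, so that they were not called says little about them. At an unadjusted p under 0.05 edgeR listed 94 miRNAs, of which 0 were members, and DESeq2 called 37 miRNAs with no member among them. The difference in log2FC, blood minus colon, was 0.32 ± 0.36 for miR-29a-3p, 0.62 ± 0.47 for miR-29b-3p and 0.56 ± 0.49 for miR-29c-3p (SE), beside a median of 0.22 over all miRNAs. The sign for miR-29a-3p turned with RLE size factors, at -0.09, and for miR-29c-5p it turned from 0.84 to -2.0 without mouse 1.

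The balance within the family was then compared by ratios of counts in the same library, which do not depend on how libraries are scaled. In colon the ratio of miR-29a-3p to miR-29b-3p was 51.5, 39.6 and 39.6 in the DSS-UC mice and ranged from 36.9 to 43.4 in the control mice. The ratio of miR-29b-3p to miR-29c-3p was 2.33, 3.81 and 3.23 in the DSS-UC colon and 2.99 to 3.10 in the control colon. In blood the ratio of miR-29a-3p to miR-29b-3p was 78.5, 128 and 120 in the DSS-UC mice and 115 to 116 in the control mice, with mouse 1 low. None of the 7 ratios differed between DSS-UC and control mice in colon (exact permutation p of 0.5 to 1, two-sided) or in blood (0.2 to 1), and all overlapped between the groups. With 3 mice against 3 the smallest p this test can give is 0.1, so it could not pass the threshold.

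The family was also set beside 20 miRNAs known from work on matrix and fibrosis, a list chosen with results of these data known. In colon all 20 were tested, 1 was SDE and higher, 4 were SDE and lower and 15 were not SDE, with a median log2FC of -0.41, beside 10.1% SDE (5.9% higher and 4.24% lower) and a median of 0.04 over all miRNAs tested. None of these calls was left without mouse 2, 4, 7 or 8, where 0 miRNAs of any kind were called. By smallest unadjusted p the first were miR-429-3p, a member of the miR-200 family that guards the epithelial state (log2FC -0.98 ± 0.17, SE), miR-199a-5p, a miRNA of stromal cells (0.62 ± 0.12), miR-30e-5p (-0.67 ± 0.13) and miR-199a-3p (0.53 ± 0.12, under the fold limit). The other SDE miRNAs of the list, named after their values were seen, were miR-141-3p (-1.17 ± 0.27) and the epithelial miR-192-5p (-1.29 ± 0.31). Of the 5 that were SDE, miR-429-3p, miR-141-3p and miR-192-5p are also on the epithelial list. In blood none of the 20 was SDE, and the smallest unadjusted p belonged to miR-214-3p (log2FC -1.47 ± 0.51, adjusted p = 0.360 in edgeR), followed by miR-30a-5p (-0.56 ± 0.27), miR-26a-5p (-0.60 ± 0.34) and miR-30b-5p (0.45 ± 0.29).

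**Figure D3:**
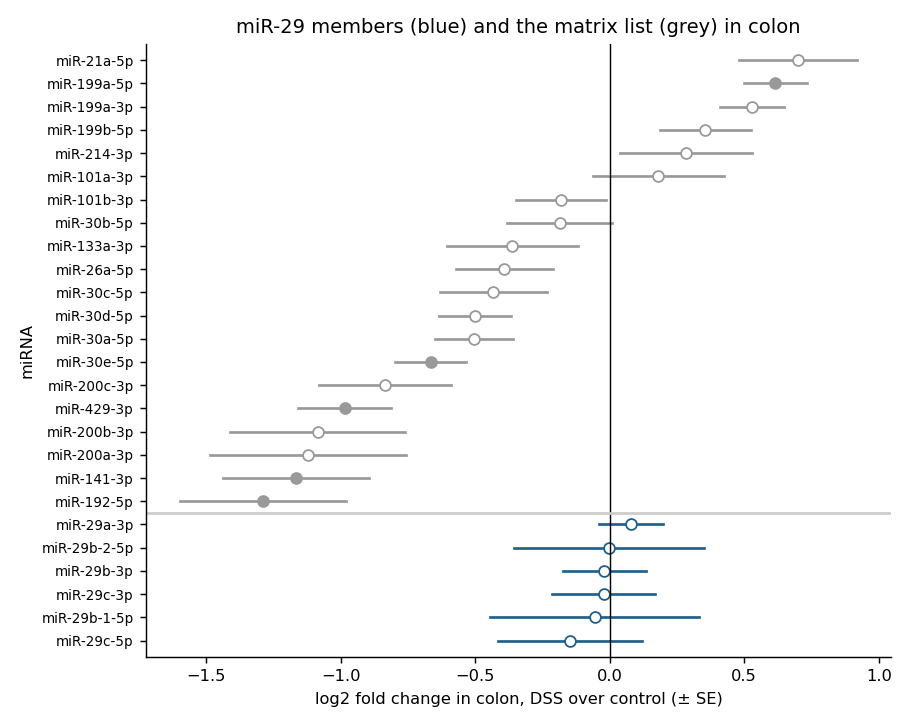
log2 fold change in colon, DSS over control, with its SE for the 6 miR-29 members tested (blue, below the line) and the 20 miRNAs of the matrix list (grey, above it); filled points are SDE. The members lie between -0.15 and 0.08, while the list reaches from -1.29 to 0.70.

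Between the tissues the 3p arms differed by more than the spread between mice with TMM factors, and the direction for miR-29a-3p depended on the scaling. On a scale common to the 12 libraries (TMM factors over all of them), miR-29a-3p stood at 708, 801 and 747 CPM in the colon of the control mice 2, 4 and 8 and at 269, 321 and 458 CPM in their blood. It was 2.15-fold lower in blood (log2FC -1.11 ± 0.26, SE, adjusted p = 0.000964 in edgeR). In the DSS-UC mice 1, 7 and 9 it stood at 831, 758 and 723 CPM in colon and at 534, 434 and 373 CPM in blood, 1.72-fold lower (log2FC -0.79 ± 0.26, SE, adjusted p = 0.0102 in edgeR). In both groups every blood library lay below every colon library.

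miR-29b-3p was lower in blood by more, 6.18-fold in control mice (17.1, 18.4 and 20.2 CPM in colon against 2.31, 2.76 and 3.93 CPM in blood) and 4.03-fold in DSS-UC mice (16.1, 19.1 and 18.3 CPM in colon against 6.78, 3.37 and 3.08 CPM in blood). miR-29c-3p was 6.18-fold lower in control mice (5.68, 5.92 and 6.74 CPM in colon against 1.03, 0.601 and 1.29 CPM in blood) and 4.18-fold lower in DSS-UC mice (6.90, 5.00 and 5.65 CPM in colon against 1.97, 1.04 and 1.15 CPM in blood). The adjusted p-values of these arms in edgeR were 5.93e-06 and 7.01e-06 in control mice and 5.95e-05 and 5.05e-05 in DSS-UC mice. The size depended on the scaling. With upper-quartile factors the log2FC in control and DSS-UC mice was -1.37 and -0.91 for miR-29b-3p and -1.38 and -0.94 for miR-29c-3p. With total counts alone it was -3.20 and -2.89 for miR-29b-3p and -3.19 and -2.93 for miR-29c-3p.

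The 5p arms had been too low for a test in blood alone and passed the filter on the 12 libraries only through their colon counts, so the direction of their fold changes was fixed by the filter and is given as a description. miR-29b-1-5p was 10.2-fold lower in control mice and 12.3-fold lower in DSS-UC mice (log2FC -3.34 ± 0.47 and -3.62 ± 0.48, SE). With a mouse left out its log2FC ranged from -3.73 to -2.81 in control mice and from -4.26 to -3.29 in DSS-UC mice. miR-29b-2-5p had 3 counts in all in control blood and 7 in DSS-UC blood, against 99 and 119 in colon. The ratio of its summed levels, colon over blood, was 31.5 with a counting interval of 10.5 to 155 in control mice and 14.2 with an interval of 6.69 to 36.2 in DSS-UC mice. miR-29c-5p was 6.13-fold lower in control mice and 3.42-fold lower in DSS-UC mice, where the blood of mouse 1 had 1.34 CPM and that of mice 7 and 9 had 0.0496 and 0.105 CPM. Its colon level in mouse 1 was 1.35 CPM, so the tissues barely differed there. In DSS-UC mice its log2FC of -1.77 moved to -4.62 without mouse 1 and to -1.20 without mouse 7 or mouse 9. miR-29a-5p did not pass the filter. Its summed levels, colon over blood, gave a ratio of 6.68 in control mice (14 and 2 counts, counting interval 1.54 to 60.6) and of 2.03 in DSS-UC mice (17 and 7 counts, counting interval 0.801 to 5.80), where the interval includes no difference. Its tissues overlapped, since the blood of mouse 1 had 0.209 CPM and the colon of mouse 9 had 0.205 CPM.

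The 3p arms, which also passed the filter in blood alone, were thus SDE and lower in blood in both groups, except that the call of miR-29a-3p in DSS-UC mice was lost without mouse 7 (adjusted p = 0.0594 in edgeR), and in both groups when only miRNAs with 10 or more counts per library were kept. Such a difference was frequent: 86.5% of the 680 miRNAs tested were SDE between the tissues in control mice (50.7% lower and 35.7% higher in blood) and 83.4% in DSS-UC mice (47.4% lower and 36% higher). In DSS-UC mice upper-quartile factors turned that split from 322 lower and 245 higher to 276 lower and 315 higher. The 3p arms also lay lower in blood with no overlap over the 12 libraries, as 44.9% of the miRNAs tested did, among 77.1% without overlap in either direction. The median log2FC over all miRNAs was -1.14 in control mice and -0.70 in DSS-UC mice, so miR-29a-3p lay at the middle of all miRNAs, with 50.1% and 49.4% of them below it. Relative to those medians miR-29a-3p was at 0.03 and -0.09 on the log2 scale, miR-29b-3p at -1.49 and -1.32, and miR-29c-3p at -1.49 and -1.37. The direction for miR-29a-3p turned with upper-quartile factors, at 0.16 in control mice and 0.36 in DSS-UC mice, neither past the test, with medians over all miRNAs of 0.11 and 0.38. It stayed lower with RLE size factors and with total counts alone.

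**Figure D4:**
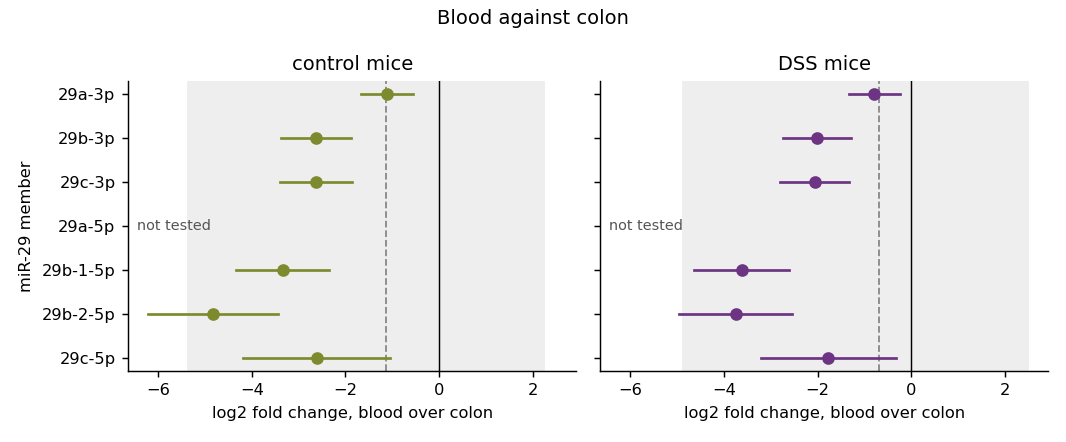
log2 fold change of blood over colon for each miR-29 member with its 95% interval from edgeR, in control mice (left) and DSS-UC mice (right); the dashed line is the median and the grey band the middle 50% of all miRNAs tested. miR-29a-3p lies on the median in both panels and the other members lie to the left of it. Of those, all but miR-29b-3p and miR-29c-3p passed the filter on low counts only through their colon counts. Their direction was therefore fixed by the filter, and their values are shown as a description.

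The ratios within libraries showed the same unequal change without any scaling. The ratio of miR-29a-3p to miR-29b-3p was 36.9 to 51.5 over the 6 colon libraries, with a median of 40.4, and 78.5 to 128 over the 6 blood libraries, with a median of 115. It was 2.65-fold higher in blood and higher in 6 of 6 mice (exact permutation p = 0.00216, the smallest possible for 6 against 6, adjusted p = 0.00505 over 7 ratios, two-sided). That test ignores that the libraries are pairs from the same mice. An exact sign-flip test within mice gave p = 0.03125, adjusted 0.0729, which did not pass. The ratio of miR-29a-3p to miR-29c-3p was 110 to 151 in colon and 254 to 510 in blood, 2.67-fold higher and again in 6 of 6 mice with the same p-values. The ratio of miR-29b-3p to miR-29c-3p had a median of 3.06 in colon and 3.09 in blood and was higher in blood in 3 of 6 mice (exact permutation p = 0.937, fold 1.01). In other words, miR-29c-3p counts were 0.660% to 0.902% of the miR-29a-3p counts in colon and 0.187% to 0.384% in blood. Whether reads of miR-29a-3p changed at base 10 are part of the miR-29c-3p counts was not tested.

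The balance of arms was compared in the same way. miR-29b-3p had 2.50 to 5.26 counts for each count of its 5p arms in colon and 6.33 to 15.5 in blood, 2.33-fold higher and in 6 of 6 mice (exact permutation p = 0.00216, adjusted p = 0.00505). The 5p arms of miR-29b had 5 to 10 counts in all per blood library, and the log2 difference of this ratio shrank from 1.222 to 0.70 when 5 in place of 0.5 was added to each count. The ratio of miR-29a-3p to miR-29a-5p (exact permutation p = 0.119), that of miR-29c-3p to miR-29c-5p (p = 0.561) and that of the 5p arms of the Mir29a and Mir29b-1 pair to those of the Mir29b-2 and Mir29c pair (p = 0.515) did not pass, and their ranges overlapped. That last ratio had a median of 1.07 in colon and 1.00 in blood, and it ranged from 0.538 to 1.35 in colon and from 0.433 to 1.31 in blood. At the low end the blood of mouse 1 had 14 counts from the first pair and 33 from the second, and the colon of mouse 2 had 38 and 71. The libraries of a tissue pair come from the same mice, and an exact sign-flip test within mice gave p = 0.03125, the smallest possible for 6 mice, for each of the 3 ratios that passed. Adjusted over the 7 ratios that was 0.0729, so none passed with the mouse as a block. Tissues also differed in RNA kit, which cannot be told apart from the tissue.

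**Figure D5:**
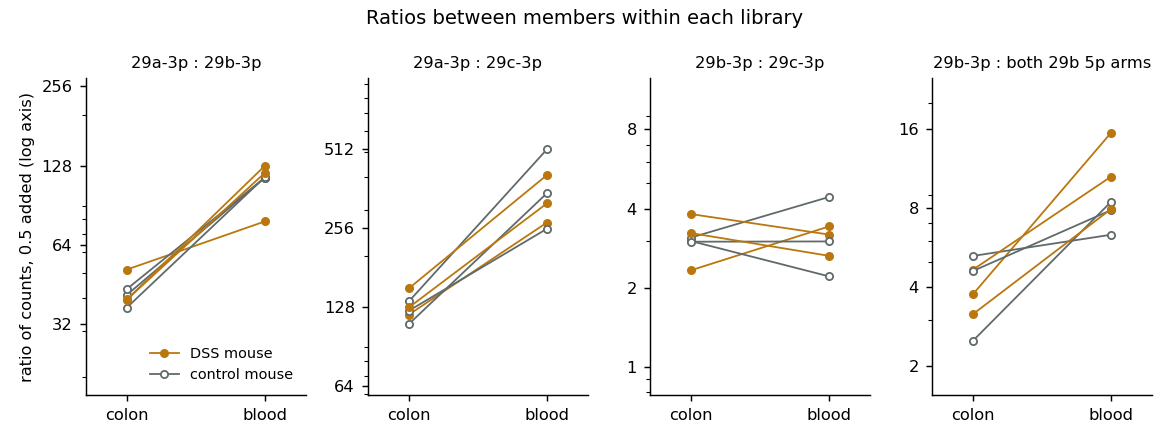
Ratios of counts within each library, with 0.5 added to each count (log axes of equal span), in colon and blood; each line joins the libraries of a mouse. Ratios of 29a-3p to 29b-3p, of 29a-3p to 29c-3p and of 29b-3p to its 5p arms lie higher in blood in 6 of 6 mice, and that of 29b-3p to 29c-3p lies near 3 in both tissues.

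The likeness of the 3p arms to other miRNAs was described by Pearson's r of log2 CPM after the mean of each tissue was subtracted, over 12 libraries from 6 mice and 356 miRNAs compared. The colon and blood libraries come from the same mice, and all miRNAs of a library share its depth, so the values are descriptions. For miR-29a-3p the nearest were miR-24-2-5p (r = 0.78), miR-139-5p (0.68) and miR-1941-5p (0.62), and the first was alike in both tissues, at 0.75 in colon and 0.79 in blood. For miR-29b-3p they were miR-24-3p (0.85), miR-27b-5p (0.85) and miR-185-5p (0.83), which rested on blood: miR-24-3p had an r of 0.94 there and -0.04 in colon. In blood miR-29b-3p stood at 4.08 CPM in mouse 1 and at 2.11 to 2.78 CPM in the other mice. How far these values rest on mouse 1 was not tested. For miR-29c-3p they were miR-22-5p (0.76), miR-30d-3p (0.75) and miR-301a-5p (0.75), with 0.86 in blood and 0.12 in colon for the first. Among the members, r was 0.53 between miR-29a-3p and miR-29b-3p (-0.18 in colon and 0.70 in blood), 0.28 between miR-29a-3p and miR-29c-3p (0.58 and 0.18) and 0.44 between miR-29b-3p and miR-29c-3p (-0.11 and 0.54). By r, miR-29b-3p was 16th of the 356 miRNAs compared for miR-29a-3p, and the other member pairs held places 45 to 94.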

How the data were processed

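Small RNA from colon and blood of 3 DSS-UC and 3 control mice was sequenced. The authors trimmed and collapsed the reads, quantified them against miRBase's mature mouse entries with miRDeep2 and deposited unnormalized counts per miRNA and library. They also deposited a normalized signal per tissue, the count divided by a DESeq2 size factor of the library, which served in 1 alternative only. The labels name GRCm38 as build. Every per-sample column was used.

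The tests used edgeR (4.0.16) under R (4.3.3): filterByExpr, TMM factors, glmQLFit and glmQLFTest, within each tissue for DSS against control and over all 12 libraries for comparisons of tissues. p-values were adjusted by Benjamini-Hochberg over all miRNAs tested. SE is the absolute log2FC over the root of its F value, and 95% intervals are unadjusted. Ratios had 0.5 added to each count and were tested in Python (3.11.15) with SciPy (1.17.1). Counting intervals are exact (Clopper-Pearson) and cover counting error only, since no molecular identifiers are named. The fits were tested on simulated counts.

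No library of a group was a duplicate of another (chi-square per degree of freedom of 122 to 3011). Blood and colon libraries with the same number come from the same mouse; deviations of a mouse's libraries from the group means had r of -0.24 to 0.15 over 357 miRNAs. The alternatives were DESeq2 (1.42.0), other scalings and filters, limma (3.58.1) on log2(signal + 1), each mature sequence once, the removal of miR-486a-5p, miR-486b-5p and miR-451a, robust dispersion, a single fit, a mouse block, each mouse left out and the labels' grouping.

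Members, lists, tests and alternatives were chosen with earlier results of these data known. Named were all members, up to 4 miRNAs of the matrix list by smallest unadjusted p, and the 3 miRNAs with the highest r for each 3p arm. Messenger RNA targets of the family were not analysed here.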

Additional observations from a re-analysis of the deposited data

How the results depend on the processing

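No member was SDE between DSS-UC and control mice, or in the difference between the tissues, under any of 17 alternatives for each comparison. Between the tissues, the fit called 6 members in control mice and 6 in DSS-UC mice, of which the 3 5p arms passed the filter only through colon and count for nothing. These counts stayed within 1.5 times of that in 16 of 17 alternatives each; with at least 10 counts in every library only 3 members were tested, and 2 were called in both groups, with miR-29a-3p at -0.54 and -0.41. Upper-quartile factors left 4 called in both groups, with miR-29a-3p at 0.16 and 0.36 and miR-29c-5p at -1.33 and -0.74. Without a mouse, miR-29a-3p in DSS-UC mice ranged from -0.98 to -0.73 and miR-29c-5p from -4.62 to -1.20, and 4 to 6 members were called. The mouse block changed no call of a member in the fits. For the ratios between tissues the block by sign-flip left 0 of 3 past the test, at the same differences of 1.41, 1.42 and 1.222 on the log2 scale. The cause of these changes was not tested except where fewer miRNAs or mice entered.

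Counts over all miRNAs moved more. In colon 55 became 16 with RLE factors, 8 with upper-quartile factors, 4 with limma on the normalized signal, 0 in a single fit of 12 libraries, 0 with the labels' grouping and 0 to 44 without a mouse. In blood 0 became 10 with DESeq2, 25 with no filter, 1 in the single fit and 0 to 1 without a mouse. In the interaction 0 became 37 with DESeq2, 8 with RLE factors, 27 with no filter, 3 with at least 10 counts in every library, 14 without miR-486a-5p, miR-486b-5p and miR-451a, 1 with the mouse as a block and 0 to 2 without a mouse. Between tissues the count became 232 in control mice and 235 in DSS-UC mice with at least 10 counts in every library.

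Signs of values that were not called turned in places, most of them near 0. In colon total counts alone gave 0.21 for miR-29b-3p, 0.19 for miR-29c-3p, 0.21 for miR-29b-1-5p, 0.22 for miR-29b-2-5p and 0.091 for miR-29c-5p, upper-quartile factors gave -0.044 for miR-29a-3p, and counting each mature sequence once gave 0.0085 for miR-29b-2-5p. Without a mouse the colon log2FC ranged from -0.00084 to 0.12 for miR-29a-3p, -0.11 to 0.037 for miR-29b-3p, -0.18 to 0.090 for miR-29c-3p, -0.38 to 0.33 for miR-29b-1-5p and -0.24 to 0.36 for miR-29b-2-5p. In the interaction miR-29a-3p became -0.086 with DESeq2, -0.093 with RLE factors and -0.26 without miR-486a-5p, miR-486b-5p and miR-451a, which also put miR-29c-3p at -0.033, while without a mouse miR-29b-1-5p ranged from -0.91 to 0.095 and miR-29c-5p from -2.0 to 1.45.

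The labels' grouping gave in colon 0.077 for miR-29c-3p, 0.48 for miR-29b-2-5p and 0.074 for miR-29c-5p, in blood -0.10 for miR-29a-3p, and in the interaction -0.24 for miR-29a-3p, -0.023 for miR-29c-3p, 0.53 for miR-29b-1-5p and -2.35 for miR-29b-2-5p. For log2 ratios it gave in colon -0.029 (29a-3p to 29c-3p), -0.25 (29b-3p to 29c-3p) and -0.54 (5p arms of the gene pairs), and in blood 0.14 (29b-3p to 29c-3p) and -2.40 (29c-3p to 29c-5p). With 1 added to each count the ratio of 29b-3p to 29c-3p became 0.0026 for DSS in blood and -0.0067 between tissues. With 5 added it became 0.070 and -0.14, the ratio of 29a-3p to 29a-5p 0.16 and -0.43, that of 29c-3p to 29c-5p -0.26 between tissues, and that of 29b-3p to its 5p arms 0.70 between tissues, still past the test. Without a mouse the log2 ratios in colon ranged from -0.030 to 0.16 (29a-3p to 29b-3p), -0.15 to 0.21 (29b-3p to 29c-3p), -0.37 to 0.17 (29b-3p to its 5p arms), -0.18 to 0.39 (29c-3p to 29c-5p) and -0.32 to 0.34 (5p arms of the gene pairs). In blood they ranged from -0.25 to 0.10 (29a-3p to 29b-3p), -0.37 to 0.13 (29a-3p to 29c-3p), -0.25 to 0.25 (29b-3p to 29c-3p) and -0.60 to 0.12 (5p arms of the gene pairs), and between tissues from -0.10 to 0.10 (29b-3p to 29c-3p) and -0.063 to 0.79 (29c-3p to 29c-5p). Depth limits the 5p arms in blood, at 0 to 32 counts, and 3 mice per group limit every comparison of DSS with control.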
